A study of Rattus norvegicus with 8 samples.

Results

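The genes described here encode the protein subunits of the mitochondrial ribosome, named Mrpl for the large subunit and Mrps for the small one. They were chosen by symbol alone: every gene whose probe accession leads to a symbol that starts with Mrpl or Mrps followed by a digit. Of 19138 genes tested, 66 are of this kind, 42 Mrpl and 24 Mrps, and all 66 passed the filter on dim probes. RefSeq lists 78 protein-coding genes under the same symbol rule. The other 12 (Mrpl28, Mrpl33, Mrpl39, Mrpl41l1, Mrpl42l1, Mrpl43, Mrps10, Mrps21l, Mrps28, Mrps36l1, Mrps6 and Mrps7) had no matched probe and are not analysed here.

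RNA came from lung endothelial cells of Sprague-Dawley rats, collected 5 days after an injection under the skin at an age of 8 to 10 weeks. The 4 treated rats were given monocrotaline at 60 mg/kg and the 4 control rats saline, with 1 array per rat. Monocrotaline is a plant alkaloid whose liver metabolite injures lung vessels and is used to model pulmonary arterial hypertension. Cells were pulled from collagenase-digested whole lung with beads that bind CD31, a surface protein of endothelial cells that some leukocytes and platelets also carry, and 10 ng of RNA per sample was amplified without culture.

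Mitochondria keep their own ribosome, which makes a small set of respiratory chain subunits from mitochondrial DNA. All of its proteins are encoded in the nucleus, made in the cytosol and imported. Some descend from bacterial ribosomal proteins and others were added in the mitochondrial lineage. In dividing cells the supply of ribosomal proteins is one gauge of biosynthetic growth, which is why these genes were set beside the cell cycle genes of the same arrays.

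None of the 66 mitochondrial ribosomal protein genes passed an adjusted p of 0.05 in either direction (limma, Benjamini-Hochberg over all genes tested), while 1.43% of all genes tested did, 262 of them higher (1.37%) and 12 lower (0.0627%) after monocrotaline. The median log2 fold change, monocrotaline over saline, was 0.01 over the 66 genes and -0.03 over all genes. It was positive in 36 and negative in 30. The fold changes ran from -0.40 for Mrpl10 to 0.37 for Mrpl52. On the same arrays 25 of 35 measured DNA replication genes and 17 of 33 measured mitosis genes rose.

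**Figure D1:**
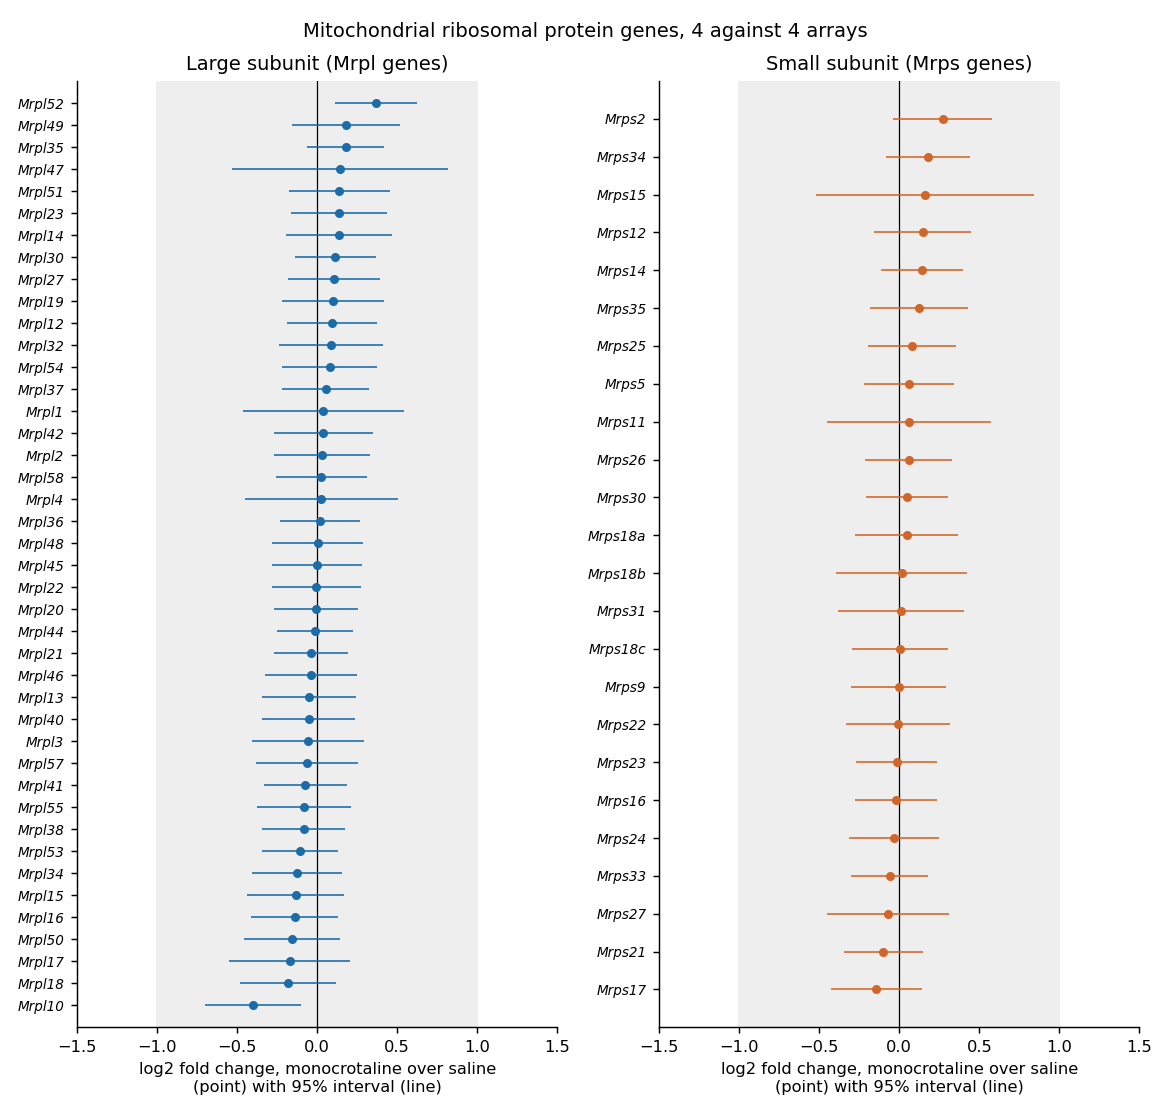
Log2 fold change, monocrotaline over saline, of the 42 Mrpl genes (left) and the 24 Mrps genes (right), 4 against 4 arrays. Points are limma estimates, lines their 95% intervals and the shaded band runs from a 2-fold fall to a 2-fold rise; all 66 lines lie inside the band.

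The intervals describe the scaled signal of the probe read for each gene, relative to the other signals of its array. They do not bound the change in transcript level itself, because second probes of some members gave other values. The 95% interval of the fold change, from limma and not adjusted over the genes, lay inside a 2-fold change either way for 66 of 66 members, against 72.2% of all genes. It lay inside a 1.5-fold change for 62 of 66 (93.9%), against 39.7% of all genes. The exceptions were Mrpl10 (-0.70 to -0.10), Mrpl52 (0.11 to 0.63), Mrpl47 (-0.53 to 0.81) and Mrps15 (-0.52 to 0.84). The members' probes varied less between arrays than most: their median pooled SD was 0.14 log2 units, against 0.28 over all genes. In 52 of 66 the difference between groups was smaller than the gene's own pooled SD. The same count was not taken over all genes, so it does not set the members apart.

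At an unadjusted p under 0.05 there was 1 member higher (Mrpl52) and 1 lower (Mrpl10), or 3.03% of members in both directions together. Among all genes, 6.72% were higher and 7.23% lower at that p. The 4 monocrotaline arrays lay apart from the 4 saline arrays in 3 members (Mrpl35 and Mrpl52 higher, Mrpl10 lower), or 4.55%, against 8.55% of all genes, 4.56% higher and 3.99% lower. The members' shares rest on few genes, and whether they differ from those of all genes was not tested.

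Mrpl52, a large subunit protein without a bacterial counterpart, had the smallest p of the members. Its scaled log2 signal, where 0 is the 75th percentile of the array, was -0.09, 0.03, -0.02 and 0.07 in saline replicates 1 to 4. It was 0.22, 0.31, 0.50 and 0.43 in monocrotaline replicates 1 to 4. Every monocrotaline array was above every saline array, by a mean of 0.37 log2 units (SE 0.11, limma adjusted p = 0.205).

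Mrpl10 encodes the protein that ties the flexible stalk of the large subunit to its body. Its signal was 5.46, 5.80, 5.56 and 5.38 with saline and 5.20, 5.07, 5.28 and 5.06 with monocrotaline. All 4 monocrotaline arrays were below the saline arrays, with a log2 fold change of -0.40 (SE 0.13, limma adjusted p = 0.234). A second Mrpl10 probe gave -0.03 (limma adjusted p = 0.954 when each probe was fitted on its own), so the difference was not shared by the gene's probes. Each of these probes has 1 spot, and the second was far dimmer, at -1.64 to -1.44 with saline.

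The promoters of these members are printed here because they had the smallest p of the members, and 3 others because they hold matches to the motifs searched. Each line gives the 250 bases before the RefSeq start, 5′ to 3′ along the gene, in the rat build GRCr8, with capitals on matches to the ETS, NRF1 and E2F motifs. Matches to CCAAT, which was searched too, are left in lower case. Mrpl52 lies at chr15:31852686-31852935 on the plus strand and holds CCGGAAG, a core that ETS factors such as GABP bind, read on the opposite strand. Mrpl10 lies at chr10:82522220-82522469 on the plus strand and holds GCATGCG, the core of the NRF1 site, on both strands in overlap. Mrps18b, at chr20:2842756-2843005 on the plus strand, and Mrpl44, at chr9:88554800-88555049 on the plus strand, are shown because they hold the full NRF1 palindrome, in capitals. Gins3, at chr19:9434680-9434929 on the minus strand, encodes a subunit of the replicative helicase complex. It is the called replication gene with the largest change among those whose window holds an E2F match, and it also has an ETS core.
Mrpl52: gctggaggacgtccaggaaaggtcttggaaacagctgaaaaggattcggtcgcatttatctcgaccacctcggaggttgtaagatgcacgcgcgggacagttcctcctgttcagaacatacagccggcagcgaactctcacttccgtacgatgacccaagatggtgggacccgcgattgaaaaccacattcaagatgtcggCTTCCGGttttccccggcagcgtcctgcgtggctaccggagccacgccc
Mrpl10: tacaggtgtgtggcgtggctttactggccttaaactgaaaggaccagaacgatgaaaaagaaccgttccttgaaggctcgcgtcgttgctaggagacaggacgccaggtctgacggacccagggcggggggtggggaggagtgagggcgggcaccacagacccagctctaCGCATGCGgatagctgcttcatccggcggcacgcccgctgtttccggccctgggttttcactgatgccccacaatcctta
Mrps18b: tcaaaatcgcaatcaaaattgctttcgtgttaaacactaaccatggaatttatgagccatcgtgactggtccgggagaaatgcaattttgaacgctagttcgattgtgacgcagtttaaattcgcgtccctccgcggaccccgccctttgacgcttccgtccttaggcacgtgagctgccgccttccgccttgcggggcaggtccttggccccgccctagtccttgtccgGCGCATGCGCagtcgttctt
Mrpl44: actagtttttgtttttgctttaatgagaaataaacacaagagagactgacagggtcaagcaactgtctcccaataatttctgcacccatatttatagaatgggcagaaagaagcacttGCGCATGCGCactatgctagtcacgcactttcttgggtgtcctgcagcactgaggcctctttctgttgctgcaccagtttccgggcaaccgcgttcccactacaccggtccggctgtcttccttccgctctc
Gins3: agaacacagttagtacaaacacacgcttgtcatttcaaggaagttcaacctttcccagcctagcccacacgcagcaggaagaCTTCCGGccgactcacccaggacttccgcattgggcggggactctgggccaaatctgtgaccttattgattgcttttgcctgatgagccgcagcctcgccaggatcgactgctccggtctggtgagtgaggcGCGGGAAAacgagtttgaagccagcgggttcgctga

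The windows searched run from 250 bases before to 50 after the start, 300 in all, on both strands, and 54 of 66 members had one. The ETS core was in 19 of 54 members (35.2%), against 16.5% of the 9366 tested genes with a window and 8.75% of all 33469 windows in the table. The share was near this in the respiratory chain (29.5%), cytosolic ribosomal (28.6%), replication (32.1%) and mitosis (30.8%) lists. The NRF1 palindrome was in 4 members (Mrpl17, Mrpl32, Mrpl44 and Mrps18b), 7.41% against 1.61% of tested genes. Its shorter core, which lies within it, was in 6 members (11.1% against 5.65%). The YY1 site, found at the start of many housekeeping genes, was also in 6 (11.1% against 2.24%). Respiratory chain genes held both at similar shares, 14.8% for the NRF1 core and 13.1% for YY1.

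CCAAT, the box bound by NF-Y, was in 25 members (46.3%), against 38.1% of tested genes and 57.1% of replication genes. The E2F motifs TTTCCCGC and TTTGGCGC, sites of the factors that switch on replication genes, were added to the search after the values were seen. Either was in 5.56% of the members' windows, 35.7% of the 28 replication windows and 2.83% of those of tested genes. In the mitosis list, which had the higher median fold change of the cell cycle lists, it was in 0 of 26 windows. A match is a string of letters in a window and does not show binding. The median log2 fold change was 0.02 in the 19 members with the ETS core and 0.03 in the 35 without it. For the NRF1 core it was -0.009 in 6 members with it and 0.027 in 48 without. For YY1 it was 0.003 in 6 and 0.016 in 48, and for CCAAT 0.026 in 25 and 0.004 in 29. These differences were not tested.

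**Figure D2:**
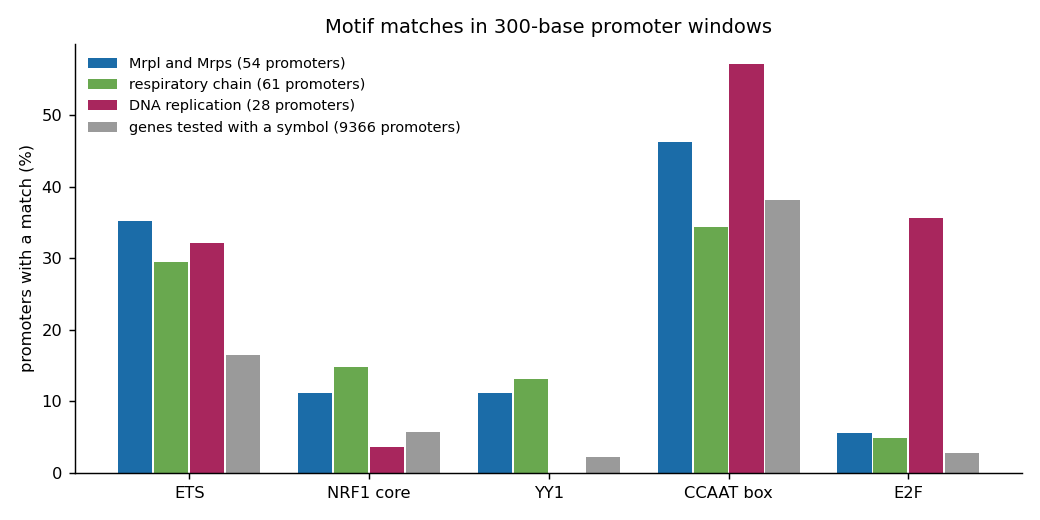
Share of promoter windows (percent, vertical axis) with at least 1 match to each motif, on either strand, in 54 Mrpl and Mrps genes, 61 respiratory chain genes, 28 replication genes and 9366 tested genes with a symbol. ETS, NRF1 core and YY1 matches are more frequent in the mitochondrial ribosomal protein genes than in tested genes, and shares in respiratory chain genes are similar to the members'. E2F matches are in 35.7% of the replication windows.

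The transcripts of Nrf1, Gabpa and Yy1 did not pass the test. The log2 fold change was -0.06 for Nrf1, 0.06 for Gabpa, which encodes the DNA-binding subunit of GABP, and 0.18 for Yy1 (limma adjusted p = 0.874, 0.862 and 0.637). Of the E2F genes tested, E2f7, a repressor of the family, rose by 1.18 log2 units (SE 0.19, limma adjusted p = 0.0268), while E2f1, E2f3 and E2f6 did not pass. None of Nfya, Nfyb and Nfyc, the subunits of NF-Y, passed. Ppargc1a, a coactivator of mitochondrial biogenesis, differed by more but with wide error. Its signal was -4.86, -4.07, -3.47 and -3.18 with saline and -7.27, -4.04, -5.37 and -5.37 with monocrotaline, where 3 of 4 arrays were well above background. The groups overlapped, and the log2 fold change of -1.62 (SE 0.65) had a limma adjusted p of 0.328.

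Among the other large subunit proteins with bacterial counterparts, Mrpl35 was the member just inside the separated groups. It was at -0.43, -0.38, -0.49 and -0.43 with saline and at -0.20, -0.18, -0.38 and -0.25 with monocrotaline. The lowest monocrotaline array and the highest saline array both round to -0.38, and the log2 fold change was 0.18 (SE 0.10, limma adjusted p = 0.480). A second Mrpl35 probe gave -0.02, the opposite sign.

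Mrpl12, the stalk protein that meets the translation factors, was at 2.59, 2.73, 2.66 and 2.78 with saline and at 2.84, 2.74, 2.59 and 2.96 with monocrotaline. The groups overlapped (log2 fold change 0.09, SE 0.12, limma adjusted p = 0.784). Mrpl12 and Mrpl10 sit in 1 stalk. Their estimates had opposite signs, but neither gene passed the test and the second Mrpl10 probe gave -0.03. Mrpl3, which reaches towards the site of peptide bond formation, was at -0.68, -0.89, -0.41 and -0.67 with saline and at -0.51, -0.59, -0.91 and -0.86 with monocrotaline (-0.06, SE 0.15).

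The lowest large subunit fold changes after Mrpl10 were also of proteins with bacterial counterparts, apart from Mrpl50 below, and in each the groups overlapped. Mrpl18 was at 1.80, 1.58, 1.97 and 1.68 with saline and at 1.70, 1.67, 1.44 and 1.49 with monocrotaline (-0.18, limma adjusted p = 0.571). Mrpl17 was at 3.53, 3.76, 3.54 and 4.02 with saline and at 3.71, 3.69, 3.53 and 3.24 with monocrotaline (-0.17, with a second probe at -0.30). Mrpl16 was at -0.42, -0.70, -0.52 and -0.53 with saline and at -0.60, -0.59, -0.84 and -0.69 with monocrotaline (-0.14). In Mrpl17 the highest array was saline replicate 4 and the lowest monocrotaline replicate 4, while the other 6 arrays of both groups lay together.

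Of the large subunit proteins of the mitochondrial lineage, Mrpl49 had a log2 fold change of 0.18 (SE 0.15), with monocrotaline replicate 1 at -0.59 and the other 7 arrays between -1.24 and -0.97. Mrpl51 was at -1.13, -1.08, -0.92 and -0.94 with saline and at -0.64, -0.87, -1.15 and -0.85 with monocrotaline (0.14), so its lowest array was a monocrotaline one. Mrpl44, which has the fold of a double-stranded RNA nuclease and the NRF1 palindrome printed above, overlapped between groups. It was at 0.59, 0.71, 0.66 and 0.67 with saline and at 0.57, 0.71, 0.58 and 0.71 with monocrotaline (-0.01, SE 0.10). Mrpl58, a release factor relative that frees peptides from stalled ribosomes and is built into the large subunit, was at 2.46, 2.81, 2.53 and 2.63 with saline and at 2.52, 2.71, 2.59 and 2.73 with monocrotaline (0.03, SE 0.12).

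Mrpl47 was the exception in detection, being well above background on 2 saline arrays and on all 4 monocrotaline arrays. It was at -6.57, -5.68, -5.48 and -5.63 with saline and at -5.87, -6.00, -5.87 and -5.06 with monocrotaline. The groups overlapped, and the log2 fold change of 0.14 had an SE of 0.29. Each of the other 65 members was well above background on all 8 arrays, and no member's probe was saturated on any of them. Mrpl50 was at -1.04, -0.85, -1.09 and -0.85 with saline and at -1.04, -1.001, -1.05 and -1.36 with monocrotaline (-0.16, limma adjusted p = 0.633).

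In the small subunit Mrps2, a protein with a bacterial counterpart at the back of the subunit, had the highest fold change. It was at -2.63, -2.93, -2.91 and -2.87 with saline and at -2.79, -2.44, -2.61 and -2.42 with monocrotaline. The monocrotaline mean was higher by 0.27 log2 units (SE 0.14, limma adjusted p = 0.412), and the groups overlapped through saline replicate 1 and monocrotaline replicate 1. Mrps34, of the mitochondrial lineage, was at 1.48, 1.72, 1.52 and 1.60 with saline and at 1.78, 1.80, 1.61 and 1.85 with monocrotaline (0.18, SE 0.11). There, monocrotaline replicate 3 fell within the saline range.

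Mrps12, which lines the decoding site, was at 1.76, 1.99, 1.93 and 1.93 with saline and at 2.28, 2.03, 1.81 and 2.07 with monocrotaline (0.15, SE 0.13, limma adjusted p = 0.669). Mrps14 was at -1.90, -1.998, -1.89 and -1.86 with saline and at -1.89, -1.72, -1.86 and -1.62 with monocrotaline (0.14). Mrps15 had the largest SE of the members, 0.30, for a log2 fold change of 0.16. Its arrays were at -1.41, -0.59, -1.99 and -1.39 with saline and at -0.79, -1.30, -1.08 and -1.57 with monocrotaline, so that the saline range covered the monocrotaline range.

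Mrps16 and Mrps22 are genes whose loss in people causes mitochondrial disease. Mrps16 was at 2.87, 2.93, 2.98 and 3.004 with saline and at 3.02, 2.95, 2.74 and 2.97 with monocrotaline (-0.02, SE 0.11). Mrps22 was at -1.84, -1.77, -1.51 and -1.69 with saline and at -1.48, -1.91, -1.83 and -1.63 with monocrotaline (-0.01, SE 0.14). Both genes had overlapping groups, with differences smaller than their SE. The 5 lowest members of the small subunit overlapped between groups as well. Mrps17, a protein with a bacterial counterpart, was at 1.44, 1.48, 1.60 and 1.70 with saline and at 1.53, 1.53, 1.33 and 1.25 with monocrotaline (-0.14). Mrps21 was at 2.35, 2.52, 2.35 and 2.41 with saline and at 2.36, 2.32, 2.36 and 2.19 with monocrotaline (-0.10). In both the lowest array was monocrotaline replicate 4. Mrps27, which has the helical repeats of an RNA-binding protein family, gave -0.07, from -3.52 to -3.11 with saline and from -3.60 to -3.09 with monocrotaline. Mrps33 was at 2.23, 2.35, 2.28 and 2.45 with saline and at 2.32, 2.26, 2.26 and 2.23 with monocrotaline (-0.06). Mrps24 was at 2.04, 2.24, 2.16 and 2.31 with saline and at 2.14, 2.21, 1.96 and 2.30 with monocrotaline (-0.03).

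The Mrps18 paralogs are 3 versions of 1 bacterial protein that occupy different places, Mrps18a in the large subunit and Mrps18b and Mrps18c in the small one. Their log2 fold changes were 0.05 (SE 0.14), 0.02 (SE 0.18) and 0.00 (SE 0.13). Mrps18a was at 1.43, 1.47, 1.57 and 1.60 with saline and at 1.75, 1.63, 1.23 and 1.64 with monocrotaline. Mrps18c was at 1.51, 1.81, 1.59 and 1.74 with saline and at 1.69, 1.86, 1.48 and 1.63 with monocrotaline. Mrps18b had a wider spread with monocrotaline, at -0.98, -1.40, -1.26 and -1.80, than with saline, at -1.29, -1.36, -1.51 and -1.34, and the saline range lay within the monocrotaline range. Mrps30, named for the small subunit but placed in the large one by the structure of the mammalian ribosome, was at 1.18, 1.08, 1.12 and 1.21 with saline and at 1.11, 1.35, 1.24 and 1.09 with monocrotaline (0.05, SE 0.11). The gene once called Mrps36 is Kgd4 in RefSeq, a component of the alpha-ketoglutarate dehydrogenase complex. It is no member and gave 0.02 (SE 0.10). The other 36 members, 20 positive and 16 negative, ran from -0.13 (Mrpl15) to 0.14 (Mrpl23), with SEs up to 0.22, and none of these 36 separated the groups.

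Large and small subunit genes had medians near each other. The median log2 fold change was 0.00 in the 42 Mrpl genes, 21 positive and 21 negative, and 0.03 in the 24 Mrps genes, 15 positive and 9 negative. The mean large subunit signal minus the mean small subunit signal, set to a saline mean of 0, was -0.03, 0.00, 0.01 and 0.01 with saline and -0.04, -0.03, -0.05 and -0.03 with monocrotaline. The lowest saline array and the highest monocrotaline array both round to -0.03. The difference of medians was -0.03 by symbol. With Mrps18a and Mrps30 moved to the large subunit it was -0.003, the medians being 0.01 in 44 genes and 0.01 in 22. The mean signals hardly moved with that split. Less the saline mean, they were 0.004 (large) and 0.038 (small) with monocrotaline, against 0.002 and 0.039 by symbol. The 37 members classed here as having a bacterial counterpart had a median of 0.02, and the other 29 had one of 0.00.

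**Figure D3:**
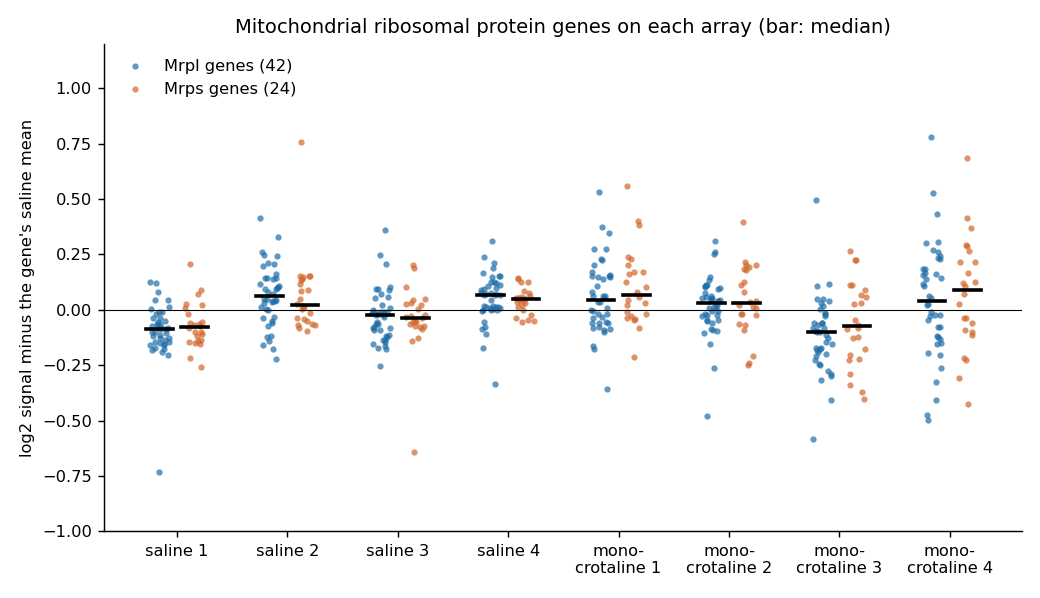
Scaled log2 signal of each mitochondrial ribosomal protein gene minus its own saline mean (vertical axis) on each of the 8 arrays, Mrpl genes in blue and Mrps genes in orange; black bars are medians. The array medians of both subunits move together, and the lowest monocrotaline array (replicate 3) and the lowest saline array (replicate 1) lie close to each other.

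The members shared small shifts from array to array. Their mean, less the saline mean, was -0.08, 0.06, -0.03 and 0.05 in saline replicates 1 to 4 and 0.08, 0.03, -0.09 and 0.05 in monocrotaline replicates 1 to 4. The monocrotaline mean was 0.02 ± 0.08 (SD, n = 4), and the saline SD was 0.07. The number of members above their own saline mean was 13, 46, 21 and 51 in the saline arrays and 40, 40, 19 and 37 in the monocrotaline arrays, so that arrays of the same group differed as much as the groups. The SD between arrays was larger with monocrotaline in 41 of 66 members (62.1%), against 59.2% of all genes.

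For 8 members the array carries 10 spots of the same probe, which gives the error of the spot itself. The mean SD between spots on 1 array was 0.04 to 0.10 log2 units in these 8 genes, and the largest on any array was 0.16, in Mrps5. Their SD between arrays of 1 group ran from 0.03 (Mrpl53 with monocrotaline) to 0.18. Most members rest on fewer spots, 52 on 2 and 6 on 1.

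In 11 members a second probe was matched, and in 9 of these both probes passed the filter. The 2 estimates had the same sign in 6 and opposite signs in 3: Mrpl35 (0.18 and -0.02), Mrps16 (-0.02 and 0.05) and Mrps21 (-0.10 and 0.07). The median distance between the 2 log2 fold changes was 0.09 and the largest 0.37, in Mrpl10. RefSeq names pseudogenes for 21 members, and whether their transcripts reach the same probes could not be checked because probe sequences were not used here.

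Genes whose products work with the mitochondrial ribosome gave 1 call in 5 lists, where 1.43% of all genes tested were called. At an unadjusted p under 0.05 (limma), 6.72% of all genes were higher and 7.23% lower. Of 5 ribosome proteins with other symbols, none passed the test and none had an unadjusted p under 0.05, and the largest value was 0.23 for Gadd45gip1, a large subunit protein (SE 0.15, limma adjusted p = 0.533). None of 21 assembly factors passed (median -0.04), the largest value being 0.36 for Tfb1m, which methylates the small subunit RNA (limma adjusted p = 0.265), the only 1 with an unadjusted p under 0.05. None of 15 translation factors passed (median 0.01), with Guf1, an elongation factor, at 0.36 (limma adjusted p = 0.304) and again the only 1 under an unadjusted 0.05. None of 19 genes for mitochondrial transcription and its control passed (median -0.05), where 1 was higher and 2 lower at an unadjusted p under 0.05.

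Of 16 genes that charge mitochondrial tRNAs (median -0.06), Pars2, the prolyl-tRNA synthetase, was the exception. Its signal was -1.21, -1.07, -1.18 and -1.07 with saline and -0.41, -0.50, -0.58 and -0.49 with monocrotaline. The groups lay far apart and Pars2 rose by 0.64 log2 units (SE 0.11, limma adjusted p = 0.0297). The call changed with the setting: the limma adjusted p was 0.092 under median scaling, 0.051 with the deposited table, and 0.067 either without the filter or with the mean of a gene's probes. Leaving out 1 array gave 0.0462 (monocrotaline replicate 3) to 0.123 (saline replicate 1), and monocrotaline replicate 3 was the only array whose loss kept the call.

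The products of mitochondrial translation join nuclear-encoded subunits of the respiratory chain, and none of 70 such genes passed the test (limma, median -0.07, 23 positive and 47 negative), with 1 higher and 2 lower at an unadjusted p under 0.05. The largest value was -1.02 for Uqcrq, a subunit of complex III (limma adjusted p = 0.280). The cytosolic ribosome gave the same count: 0 of 78 ribosomal protein genes passed (limma, median -0.00), and 0 had an unadjusted p under 0.05. For 68 of 78 the 95% interval lay inside a 1.5-fold change. Rpl3l had the largest value of the 78, at 0.57 (SE 0.40, limma adjusted p = 0.563). Nucleolar ribosome biogenesis factors, 31 measured, had a median of 0.08 and none passed. Of these, 5 were higher and 0 lower at an unadjusted p under 0.05, against 6.72% and 7.23% of all genes. Positive fold changes made up 67.7% of the 31, against 46.1% of all genes and 32.9% of the respiratory chain genes. Utp20 of the small subunit processome was at 0.40 (limma adjusted p = 0.308).

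**Figure D4:**
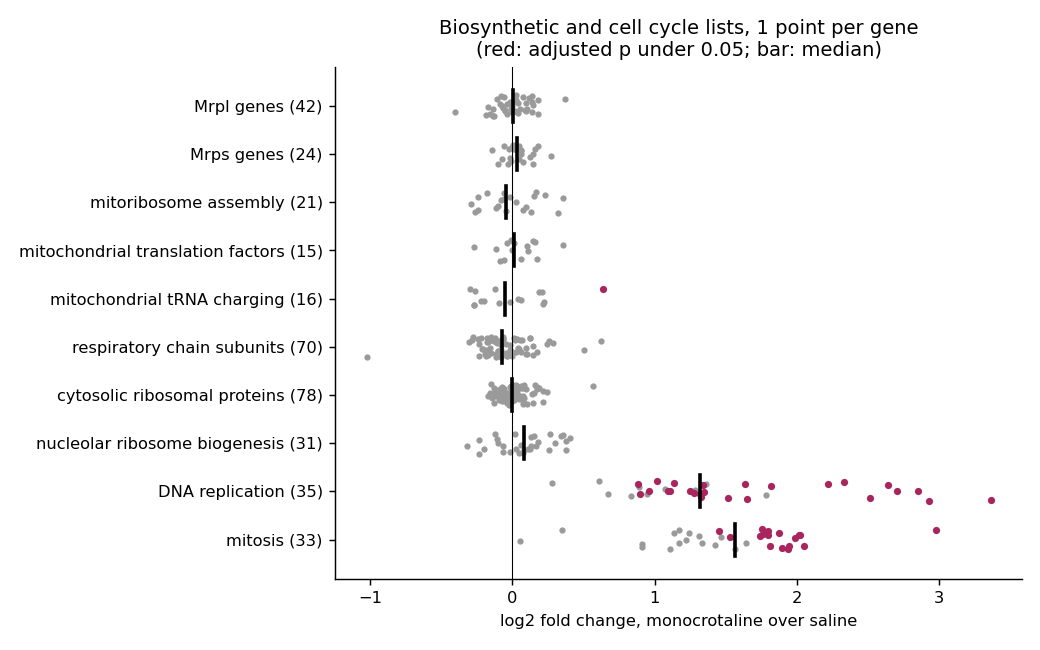
Log2 fold change, monocrotaline over saline (horizontal axis), of every measured gene in 10 lists, 1 point per gene, with the number of genes in brackets; red points passed an adjusted p of 0.05 in limma and black bars are medians. The ribosomal, respiratory and assembly lists lie around 0. Medians are -0.07 for respiratory chain subunits and 0.08 for nucleolar ribosome biogenesis. The replication list has a median of 1.32 and the mitosis list one of 1.57.

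The cell cycle lists lay well away from the ribosomal ones. The median log2 fold change was 1.32 over 35 replication genes and 1.57 over 33 mitosis genes, and all were positive. Ccne2, the cyclin that drives entry into DNA synthesis, was at -5.86, -5.96, -5.91 and -5.06 with saline, where 2 arrays were well above background, and at -2.03, -2.44, -2.87 and -1.99 with monocrotaline. It rose by 3.36 log2 units (SE 0.27, limma adjusted p = 0.00407). Cenpt, a centromere protein that anchors the kinetochore, rose by 2.98 (SE 0.49, limma adjusted p = 0.029), and Gins3, whose promoter is printed above and which was well above background on 3 saline arrays, by 1.63 (SE 0.21, limma adjusted p = 0.0131). No gene of either cell cycle list had an interval inside a 1.5-fold change.

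The number of calls depended on which array was left out. Without saline replicate 1 it was 4 in the replication list and 0 in the mitosis list. Without monocrotaline replicate 4 it was 14 and 1, and without saline replicate 3 it was 14 and 2. Without saline replicates 2 or 4 the mitosis calls were 2 and 3, and without monocrotaline replicate 1 they were 2, beside 15 in replication. Without monocrotaline replicate 2 the calls were 23 in replication and 16 in mitosis, and without replicate 3 they were 27 and 19. With 1 array left out, the median log2 fold change stayed at 1.21 to 1.42 in replication and 1.37 to 1.80 in mitosis. Cenpt lost its call without saline replicates 1 or 2 and without monocrotaline replicates 1 or 4. The array means of both lists did not overlap between groups: the replication mean was 1.51 ± 0.30 with monocrotaline (SD, n = 4), against a saline SD of 0.13.

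**Figure D5:**
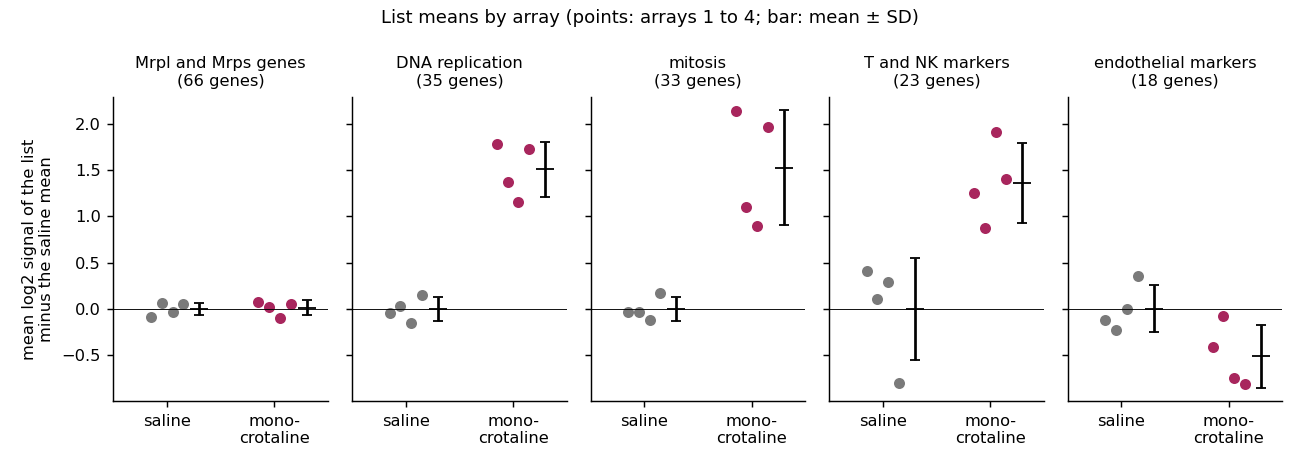
Mean scaled log2 signal of 5 lists on each array, minus the saline mean (vertical axis); points are the 4 arrays of a group and bars the mean ± SD. The mitochondrial ribosomal protein mean overlaps between groups (0.02 ± 0.08 with monocrotaline), while the replication (1.51 ± 0.30) and mitosis (1.53 ± 0.62) means do not.

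Some markers of other cells rose. The labelled cell type was present, with Pecam1, which encodes CD31, between 5.16 and 5.79 with saline and between 4.76 and 5.31 with monocrotaline. All 18 endothelial markers measured had negative fold changes (median -0.51) and none passed the test (limma). An unadjusted p under 0.05 was found in 9 of the 18, where 7.23% of all genes were lower at that p. The mean of the 18 was -0.41, -0.07, -0.75 and -0.81 in the monocrotaline arrays, against -0.23 to 0.35 in the saline arrays. The T and NK cell markers, 23 measured and all positive (median 1.33), had 3 that rose (Cd247, Cd8b and Zap70), where 1.37% of all genes did. Of the 23, 19 were higher at an unadjusted p under 0.05 (limma), against 6.72% of all genes. In 15 the groups did not overlap, against 4.56% of all genes in that direction. The mean of the 23 was 0.88 to 1.91 with monocrotaline, against -0.80 to 0.41 with saline. Airway markers, 10 measured, had 1 that rose (Clca1) and 5 that were higher at an unadjusted p under 0.05 (limma). They averaged 2.78 and 2.96 in monocrotaline replicates 1 and 3, and 0.46 and 0.72 in replicates 2 and 4. Of the other 8 marker lists (alveolar, B cell, erythroid, fibroblast, macrophage, neutrophil, platelet and smooth muscle) no gene passed, and their medians ran from 0.03 to 1.11. In the bulk RNA, fewer cells of a type and less RNA per cell cannot be told apart.

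The part of these cells in the ribosomal and cell cycle values was not tested. With monocrotaline replicates 1 and 3 left out, an alternative chosen after seeing the data, none of the 66 members passed the test. Of their intervals, 50 lay inside a 1.5-fold change. In the cell cycle lists 10 replication and 2 mitosis genes passed, with median log2 fold changes of 1.42 and 1.53. Fewer arrays can by themselves lower such counts. The T and NK means were 0.88 and 1.41 in the remaining monocrotaline replicates 2 and 4, so this alternative does not remove those markers. All 8 arrays lay on 1 slide, saline in row 1 and monocrotaline in row 2, so row and group cannot be told apart. On each array 70.8% to 77.7% of spots cleared background, and 4 arrays per group limit the precision. Since each array was scaled to its own 75th percentile, a change shared by all genes would not be seen.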

How the data were processed

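Total RNA of 8 samples was read on 1-colour Cy3 arrays. Per the file headers, signals were extracted with Agilent Feature Extraction 10.7.3.1, and the deposited processed signal is an intensity, background-subtracted within each array with no scaling across arrays. Flags in the deposited files are other values, 0 or 1 per spot. The deposited values are log2 of a log2 signal, since undoing the outer step gave the quantile-normalized log2 processed signal (median absolute difference 9.89e-10). It served as an alternative. The submitters' processing notes list limma 3.6.9 and give it no role.

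Control spots (4259) and spots with an outlier flag were left out, spots of a probe were averaged, and log2 signals were set to a 75th percentile of 0 on each array. Probes well above background on at least 4 of 8 arrays were kept (21653 of 30367), and a gene with several was read from its brightest by mean signal. Accessions led 18006 probes to 15159 RefSeq symbols; 12361 probes have no name here. The groups were compared in R 4.3.3 with limma 3.58.1 (two-sided, adjusted by Benjamini-Hochberg over 19138 genes; files read with data.table, version 1.17.8), which was tested on simulated data. The labels give 4 animals per group, so p-values measure the spread between those animals and arrays.

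Values were given for members that were called or whose groups did not overlap, for the 5 highest and 5 lowest of each subunit, and for 12 genes picked by role, with the leading member of each other list. Nrf1, Gabpa, Yy1, the E2f and Nfy genes, Ppargc1a, Gins3, Mrpl53, Mrps5, Gadd45gip1 and Pecam1, with Cd247, Cd8b, Zap70 and Clca1, were added for the motifs, spots and markers discussed, after their values were seen where that rule does not name them. The members and lists were chosen with earlier results of these data known. Alternatives were normexp correction (offset 50, on median spot signals), quantile and median scaling, the deposited table, other filters, the mean of a gene's probes, a trended and robust limma fit, weighted arrays, a replicate block, the split by structure and leaving out arrays. Promoters are RefSeq's, build GRCr8. The arrays' own design build is an older one, so no array coordinates were used.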

Additional observations from a re-analysis of the deposited data

Results flagged for a closer look

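In both cases below, 1 array stood apart from the other 3 of its group by more than Dixon's 95% limit of 0.829 of the group's range. Of 68 group values checked, 2 did so, and chance alone flags about 1 in 20 of such groups. Mrpl47 in monocrotaline replicate 4 was at -5.06, while the other 3 lay between -6.00 and -5.87. Mrpl50 in monocrotaline replicate 4 was at -1.36, while the other 3 lay between -1.05 and -1.001.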

How the results depend on the processing

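No member was called under any alternative run, with the lowest adjusted p (limma) between 0.110 and 0.508. The members' median log2 fold change ran from -0.03 to 0.06 over the alternatives, and 65 or 66 intervals lay inside a 2-fold change and 50 to 64 inside a 1.5-fold change. Genes higher numbered 0 with the replicate block, 51 without monocrotaline replicates 1 and 3 together, and 11 to 273 without 1 replicate. Every call given above therefore ended under the replicate block, with adjusted p (limma) of 0.0663 for Ccne2, 0.176 for Cenpt and 0.226 for Pars2. Genes lower numbered 0 with the block, 1 without those 2 arrays, 21 with normexp under 75th percentile or quantile scaling, 59 with array weights, and 0 to 93 without 1 replicate. The deviations of same-numbered arrays correlated at -0.33 to -0.01, and those of differently numbered arrays at -0.34 to 0.39. So few values cannot show whether the numbers pair the samples. Same-numbered arrays share a slide column, and the cause of the lost calls was not tested. The difference of medians, large minus small subunit, moved to -0.0027 (normexp, 75th percentile), 0.0014 (normexp, quantile), 0.0015 (quantile) and -0.0019 (deposited table). It moved to -0.015 (array weights) and -0.0033 (split by structure), and without 1 replicate it was -0.058 to -0.0071. None of the single members whose sign turned was called. Under normexp with 75th percentile scaling Mrpl47 was -0.19. Under normexp with quantile scaling Mrpl47 was -0.042, Mrps24 0.017, Mrpl44 0.0050 and Mrps16 0.035. Under quantile scaling Mrps24 was 0.022, Mrps16 0.030 and Mrps18b -0.0055. Under median scaling Mrpl58 was -0.014, Mrps18b -0.025 and Mrps18c -0.037. In the deposited table Mrps24 was 0.020, Mrps16 0.050 and Mrps18b -0.039. As a mean of probes Mrps16 was 0.016. Under array weights Mrps27 was 0.057, Mrps24 0.043, Mrpl44 0.021, Mrps16 0.018, Mrps22 0.043 and Mrps18b -0.010. Without monocrotaline replicates 1 and 3 Mrps24 was 0.066, Mrps15 -0.093, Mrpl44 0.054, Mrps16 0.017 and Mrps18b -0.22. Without 1 replicate the log2 fold change was Mrpl47 -0.10 to 0.26, Mrps27 -0.16 to 0.015, Mrps24 -0.083 to 0.030, Mrps15 -0.054 to 0.41, Mrpl44 -0.036 to 0.0095, Mrpl58 -0.021 to 0.095, Mrpl3 -0.13 to 0.027, Mrps16 -0.057 to 0.037, Mrps22 -0.087 to 0.059, Mrps18a -0.017 to 0.16, Mrps18b -0.11 to 0.16, Mrps18c -0.061 to 0.065 and Mrps30 -0.0026 to 0.084.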
